A study of Mus musculus with 9 samples.

Results

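The genes described here encode the pore-forming subunits of AMPA receptors (Gria1, Gria2, Gria3 and Gria4) and 4 of their transmembrane regulatory proteins, or TARPs (Cacng4, Cacng5, Cacng7 and Cacng8), which is 8 of the 48526 genes in the count table. The genes were matched by Ensembl identifier. The family was chosen by the measured values of the comparison of 6 h with 0 h, in which Cacng5 was among the genes with the largest falls, so the values of the 8 genes at 6 h are given as a description, and their counts past a threshold at 6 h support nothing. RNA-seq had been performed on neural stem cells (NSCs) from the subependymal zone (SEZ) of adult mice, C57BL/6 in the labels and, per the methods of the study, wild-type C57BL/6J between 2 and 4 months old. The cells were grown as neurospheres with EGF and FGF. The groups were undifferentiated cells (0 h) and cells collected 1 h and 6 h after differentiation was induced on an adhesive substrate, with EGF removed and FGF kept. Each group had 3 replicates, which gives 9 libraries, and all groups shared the strain, the tissue of origin and FGF. For cells fixed at early times the methods describe a period in medium with EGF after seeding, and they do not say whether the cells of the 1 h and 6 h RNA libraries were handled in this way.

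AMPA receptors are glutamate-gated cation channels that carry most fast excitatory transmission. Their subunits combine into tetramers, and receptors that contain the edited Gria2 subunit let little calcium pass. TARPs bind the receptor, help it to reach the membrane and slow its closing. Type I TARPs include the products of Cacng4 and Cacng8, and type II TARPs are the products of Cacng5 and Cacng7, which alter channel gating in a different manner. Besides neurons, oligodendrocyte progenitors and migrating neuroblasts are known to carry AMPA receptors.

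Libraries held between 65871454 and 105592597 counted reads in total. All 8 genes passed the filter on low counts, with 61 (Gria1) to 20714 (Gria2) reads in a library. The 7 NSC markers summed to between 4170 and 5670 CPM (reads scaled to library size) at 0 h and between 3530 and 5020 CPM at 6 h, and each had at least 1 CPM. Members of the list went both ways at 6 h. Msi1 was called higher without the replicate block described below, Egfr and Msi1 higher and Nes lower with it, and the median log2 fold change of the 7 was 0.13. The sum of 6 oligodendrocyte progenitor markers ranged from 1690 to 2290 CPM at 0 h and from 2160 to 2510 CPM at 6 h. Most of it at 0 h was Olig1 (mean 1228 CPM) and Olig2 (633 CPM). Pdgfra had 11.1 CPM at 0 h, and 2 of the 6 had a mean under 1 CPM. The sum of 7 neuronal markers ranged from 29.9 to 47.5 CPM at 0 h and from 77.0 to 135 CPM at 6 h. Syt1 was its largest part, with means of 22.8 CPM at 0 h and 70.3 CPM at 6 h. The means of Dcx (1.08 and 0.811 CPM) and Stmn2 (0.331 and 0.194 CPM) were lower at 6 h. Of the progenitor and neuronal markers, 1 of 6 (Cspg4) and 1 of 7 (Elavl3) were called higher at 6 h without the block. With it, 5 of 6 (not Olig1) and 5 of 7 (not Dcx and Stmn2) were called higher. Sox10, which is among these, had between 2 and 35 reads in a library. Over all tested genes, 1.46% were called higher and 0.955% lower without the block, and 17.4% and 17.5% with it. The 6 astrocyte markers summed to between 329 and 443 CPM over all libraries of 0 h and 6 h. The 6 microglial markers summed to at most 0.526 CPM in any library, with Itgam at 0 in all 9. The 4 endothelial markers summed to between 1.95 and 14.8 CPM at 0 h and between 1.46 and 7.37 CPM at 6 h, with Cldn5 at 0 in all libraries of 0 h, and the 4 ependymal markers to between 45.8 and 86.9 CPM and between 37.4 and 59.5 CPM. In these 4 lists no marker was called at 6 h against 0 h without the block, and with it Slc1a2 was higher and Gfap, Csf1r, Flt1, Foxj1 and Ccdc153 were lower. Csf1r, the 1 microglial marker that was tested, had only 12, 14 and 6 reads at 0 h and 3, 7 and 6 at 6 h. The part of these cells in the values below was not tested. In bulk RNA, fewer cells of a type and less RNA per cell cannot be told apart.

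The 8 genes covered a wide range of levels in undifferentiated NSCs. Levels of different genes were compared as CPM per kb of annotated exon (mean ± SD, n = 3). At 0 h, Cacng7 was the highest, with 21.8 ± 1.41 CPM per kb and between 20.2 and 22.7 in the 3 libraries. Cacng8 (13.6 ± 1.80) and Gria3 (13.3 ± 1.97) came next and overlapped between libraries. Gria2 followed with 9.33 ± 3.74 CPM per kb and Cacng4 with 8.88 ± 1.80, and these overlapped as well. Gria4 had 4.81 ± 3.89 CPM per kb and ranged from 1.27 to 8.97. Cacng5 had 1.03 ± 0.269 CPM per kb, with a highest library (1.34) above the lowest of Gria4. Gria1 was the lowest, with 0.226 ± 0.0795 CPM per kb, and did not overlap with Cacng5. With the longest annotated transcript as the length, Gria3 (25.3 CPM per kb) came above Cacng7 (24.0). Of the neighbours in the order by exon length, those whose libraries did not overlap were Cacng7 and Cacng8 and, at the lower end, Cacng5 and Gria1.

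Among the AMPA receptor subunits, Gria3 took the largest mean share per exon length. At 0 h it made up 50.5% ± 17.2 of the summed CPM per kb of Gria1 to Gria4, Gria2 32.9% ± 8.32, Gria4 15.8% (5.76% to 25.8% in the 3 libraries) and Gria1 0.805% ± 0.0965. With the length of the longest transcript in place of the union of exons, these shares were 57.6%, 30.4%, 11.5% and 0.537%, in the same order.

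**Figure D1:**
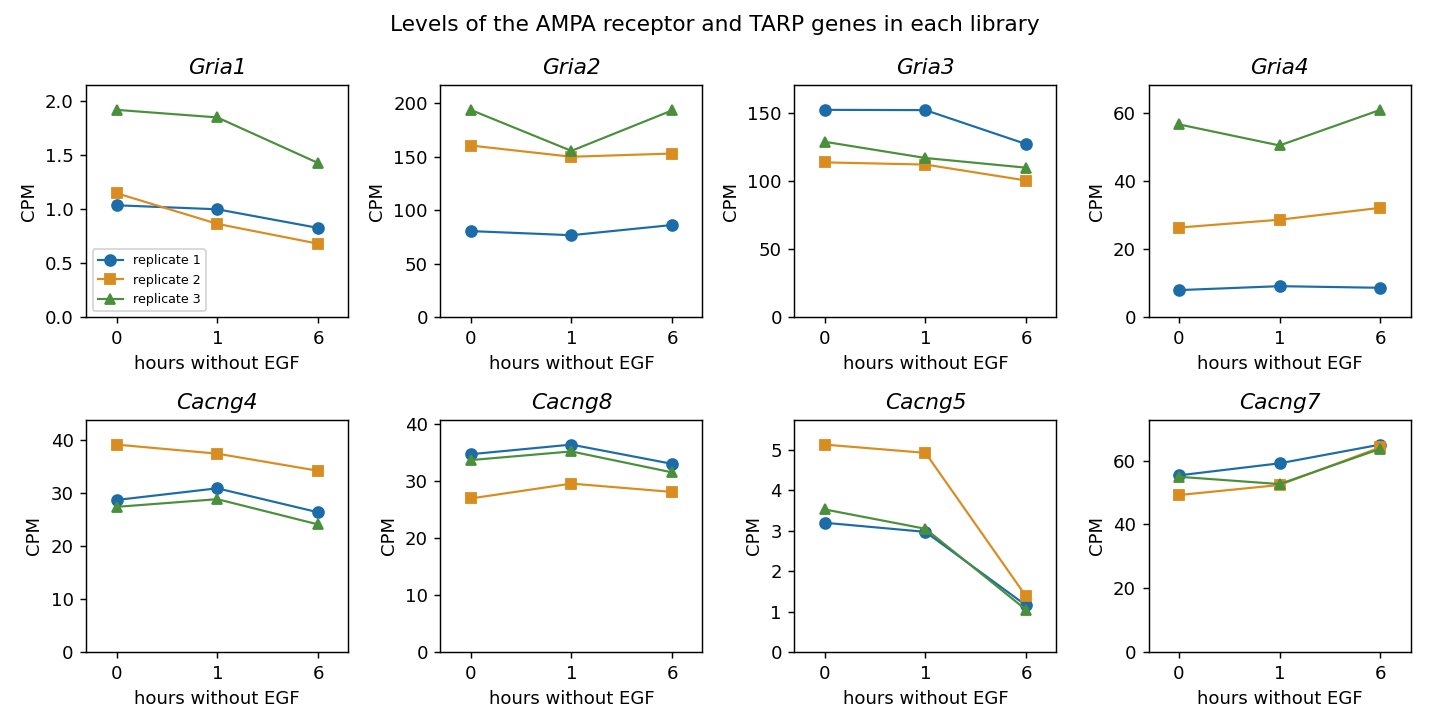
Each panel plots 1 gene, with hours without EGF on the horizontal axis and CPM on the vertical axis, and points of the same replicate number are joined by a line. Cacng5 lies between 1.05 and 1.38 CPM in the 6 h libraries, below all libraries of 0 h and 1 h, whereas the lines of Gria2 and Gria4 stay apart by replicate number at all 3 time points.

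Gria1 (ENSMUSG00000020524, plus strand, chr11:57011387-57330244 in GRCm38) encodes GluA1, a subunit abundant in forebrain neurons and moved into synapses during plasticity. Here it had few reads. At 0 h, replicates 1, 2 and 3 had 1.04, 1.15 and 1.92 CPM, at 1 h 1.00, 0.865 and 1.85 CPM, and at 6 h 0.828, 0.682 and 1.43 CPM. The groups overlapped, but within each replicate number the 6 h library was lower than that of 0 h, at 0.799, 0.594 and 0.744 times its level. Between 0 h and 6 h the log2 fold change of Gria1 was -0.48 (SE 0.41) without and -0.50 (SE 0.16) with the replicate number as a block in the fit.

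Gria2 (ENSMUSG00000033981, minus strand, chr3:80681450-80802835) encodes GluA2, the subunit that sets the calcium permeability of the receptor. It had the highest mean CPM of the 8 genes over all libraries (139). At 0 h, replicates 1, 2 and 3 had 80.7, 160.6 and 194 CPM, at 1 h 76.8, 150.1 and 156 CPM, and at 6 h 86.4, 153 and 193 CPM. Replicate 1 was the lowest and replicate 3 the highest at each time point, and the time points overlapped. For Gria2 the log2 fold change at 6 h was -0.01 (SE 0.41) without and 0.01 (SE 0.06) with the block.

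Gria3 (ENSMUSG00000001986, plus strand, chrX:41400854-41678601) encodes GluA3. It had 152, 114 and 129 CPM in replicates 1, 2 and 3 at 0 h, 152, 112 and 117 CPM at 1 h, and 127, 100.4 and 109.8 CPM at 6 h. In each replicate number the 6 h library was lower than the 0 h library, at 0.835, 0.883 and 0.853 times its level, although the groups overlapped. The log2 fold change of Gria3 at 6 h was -0.23 (SE 0.15) without and -0.22 (SE 0.05) with the block.

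Gria4 (ENSMUSG00000025892, minus strand, chr9:4417896-4796234) encodes GluA4, a subunit with fast kinetics. Its replicates were further apart than those of the other members. At 0 h replicates 1, 2 and 3 had 8.02, 26.3 and 56.6 CPM, at 1 h 9.17, 28.6 and 50.4 CPM, and at 6 h 8.70, 32.1 and 60.8 CPM. The highest library exceeded the lowest 7.05-fold at 0 h, 5.49-fold at 1 h and 6.99-fold at 6 h, and replicate 3 was the highest and replicate 1 the lowest each time. Within replicate numbers, the 6 h library was at 1.09, 1.22 and 1.08 times the 0 h level. For Gria4 the fitted log2 fold change at 6 h was 0.16 (SE 0.87) without and 0.17 (SE 0.07) with the block.

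The genes of the type I TARPs differed little between time points. Cacng4 (ENSMUSG00000020723, minus strand, chr11:107732357-107794557), which encodes the γ-4 subunit, had 28.7, 39.2 and 27.4 CPM in replicates 1, 2 and 3 at 0 h, 30.9, 37.4 and 28.9 CPM at 1 h, and 26.4, 34.2 and 24.1 CPM at 6 h. Its 6 h libraries were at 0.919, 0.874 and 0.879 times the 0 h level of the same number, and the groups overlapped. For Cacng4 a log2 fold change at 6 h of -0.17 was fitted in both designs (SE 0.18 without and 0.06 with the block). Cacng8 (ENSMUSG00000053395, plus strand, chr7:3390683-3415648) encodes γ-8, a TARP best known from the hippocampus. It had 34.8, 27.0 and 33.7 CPM in replicates 1, 2 and 3 at 0 h, 36.5, 29.6 and 35.3 CPM at 1 h, and 33.1, 28.1 and 31.6 CPM at 6 h. The 6 h libraries of Cacng8 were at 0.951, 1.04 and 0.936 times the 0 h level, and its log2 fold change was -0.04 with both fits (SE 0.13 without and 0.05 with the block).

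The genes of the type II TARPs differed from 0 h in opposite directions. Cacng5 (ENSMUSG00000040373, minus strand, chr11:107874605-107915055) encodes γ-5. At 0 h it had 3.19, 5.12 and 3.52 CPM in replicates 1, 2 and 3, at 1 h 2.97, 4.92 and 3.04 CPM, and at 6 h 1.15, 1.38 and 1.05 CPM. These values rest on 231, 379 and 246 reads at 0 h and on 85, 125 and 112 reads at 6 h. The 6 h libraries did not overlap with those of 0 h or 1 h, and were at 0.361, 0.268 and 0.297 times the 0 h level of the same number. The log2 fold change of Cacng5 at 6 h was -1.73 (SE 0.27) without and -1.72 (SE 0.13) with the block, which is a level 3.31-fold and 3.29-fold lower. Between 1 h and 6 h it was -1.61 (SE 0.27) without the block.

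Cacng7 (ENSMUSG00000069806, plus strand, chr7:3332955-3368221) encodes γ-7. It had 55.4, 49.2 and 54.9 CPM in replicates 1, 2 and 3 at 0 h, 59.2, 52.4 and 52.6 CPM at 1 h, and 65.0, 64.2 and 63.7 CPM at 6 h. Its 6 h libraries lay above all those of 0 h and 1 h, at 1.17, 1.30 and 1.16 times the 0 h level of the same number. The log2 fold change of Cacng7 at 6 h was 0.27 (SE 0.08) without and 0.28 (SE 0.05) with the block, a level 1.21-fold higher.

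Since Cacng5 and Cacng7 differed most clearly between time points, the 250 bases before their annotated RefSeq start sites are shown 5′ to 3′ on the strand of the gene (RefSeq windows, GRCm38.p6). Capitals mark the letters CCGCCC, which are a GC box (GGGCGG) on the other strand. The window of Cacng5 is chr11:107915056-107915305 on the minus strand, and that of Cacng7 is chr7:3332575-3332824 on the plus strand.
Cacng5: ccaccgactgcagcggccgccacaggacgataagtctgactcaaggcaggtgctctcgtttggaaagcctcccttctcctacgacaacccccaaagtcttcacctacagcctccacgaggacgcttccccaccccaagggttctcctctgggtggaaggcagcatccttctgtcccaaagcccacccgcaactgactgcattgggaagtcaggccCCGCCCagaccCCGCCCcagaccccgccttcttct
Cacng7: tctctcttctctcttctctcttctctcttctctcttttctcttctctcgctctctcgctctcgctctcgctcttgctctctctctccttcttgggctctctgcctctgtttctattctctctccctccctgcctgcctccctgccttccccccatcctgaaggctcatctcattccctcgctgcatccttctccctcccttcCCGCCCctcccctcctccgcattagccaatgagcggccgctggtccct
The window of Cacng5 holds 2 GC boxes and that of Cacng7 holds 1, and 32.7% of the 32851 RefSeq windows of 250 bases hold at least 1 on either strand. The window of Cacng5 also holds 1 match to the AP-1 letters TGANTCA, which occur in 6.75% of the windows. Neither window holds the EGR letters GCGTGGGCG (0.536% of windows) or the CRE letters TGACGTCA (1.55%). Both strands were searched, and a match of letters describes the window only. The RefSeq start of Cacng7 lies upstream of its start in the gene models used for the counts here, at position 3332955. A second RefSeq start of Cacng5, with the window chr11:107911363-107911612, had none of these 4 motifs. The windows of Gria2, Gria4 and Cacng8 had none either, and Gria1, Gria3 and Cacng4 were not matched to a window. The RefSeq start of Cacng8, at position 3394042, lies inside its gene model used here, which starts at 3390683.

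At 1 h none of the 8 genes was called. In edgeR's quasi-likelihood test without the block, the adjusted p was 0.9998 for each gene, none had an unadjusted p below 0.05, and log2 fold changes ranged from -0.19 (Gria2) to 0.09 (Cacng8). In that fit 0.0424% of the 18858 tested genes were called higher and 0.0% lower. With the replicate block, 0 of 8 were called as well, beside 1.36% of all tested genes higher and 2.14% lower. With the block Gria2 alone had an unadjusted p below 0.05, with a log2 fold change of -0.16 (SE 0.06, adjusted p = 0.165). Of the 18858 tested genes, 1562 higher and 1876 lower had an unadjusted p below 0.05 in that fit. Gria2 was lower at 1 h than at 0 h in 3 of 3 replicates, at 0.952, 0.935 and 0.803 times the level. Cacng5 at 1 h was at 0.930, 0.960 and 0.864 times its 0 h level, a log2 fold change of -0.12 (SE 0.11, adjusted p = 0.630 with the block). The 1 h comparison shares its 0 h libraries with the comparison that chose the family, so it is not independent of that choice. DESeq2 called 0 of the 8 genes with and without the block, with Gria1 left without an adjusted p in its blocked fit.

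At 6 h against 0 h, 1 of the 8 genes was past the threshold in the fit without the block (Cacng5, lower), where 1.46% of all tested genes were called higher and 0.955% lower. With the block, 1 was higher (Cacng7) and 4 were lower (Gria1, Gria3, Cacng4 and Cacng5), where 17.4% of all tested genes were higher and 17.5% lower. Between 1 h and 6 h, Cacng5 was again the only one past the threshold without the block, with a background of 1.48% higher and 0.663% lower. With the block, Cacng7 and Gria2 were higher and Gria3, Cacng4 and Cacng5 lower, with a background of 18.0% and 17.5%. Both comparisons use the 6 h libraries that chose the family, so nothing is read from these counts. The median log2 fold change of the 8 genes at 6 h against 0 h was -0.11 without the block, and the median over all tested genes was -0.003 (median absolute value 0.20). With the block, Gria1 and Cacng4 were no longer past the threshold when any replicate number was left out, and Gria3 was not without replicate 1. Cacng5 and Cacng7 stayed past it in 3 of 3 of these fits, which also use libraries that chose the family. Without the block, the call of Cacng5 needed every 0 h and 6 h library, as it remained in 3 of the 9 fits that left out 1 library (those without a 1 h library), while the log2 fold change stayed between -1.86 and -1.49.

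**Figure D2:**
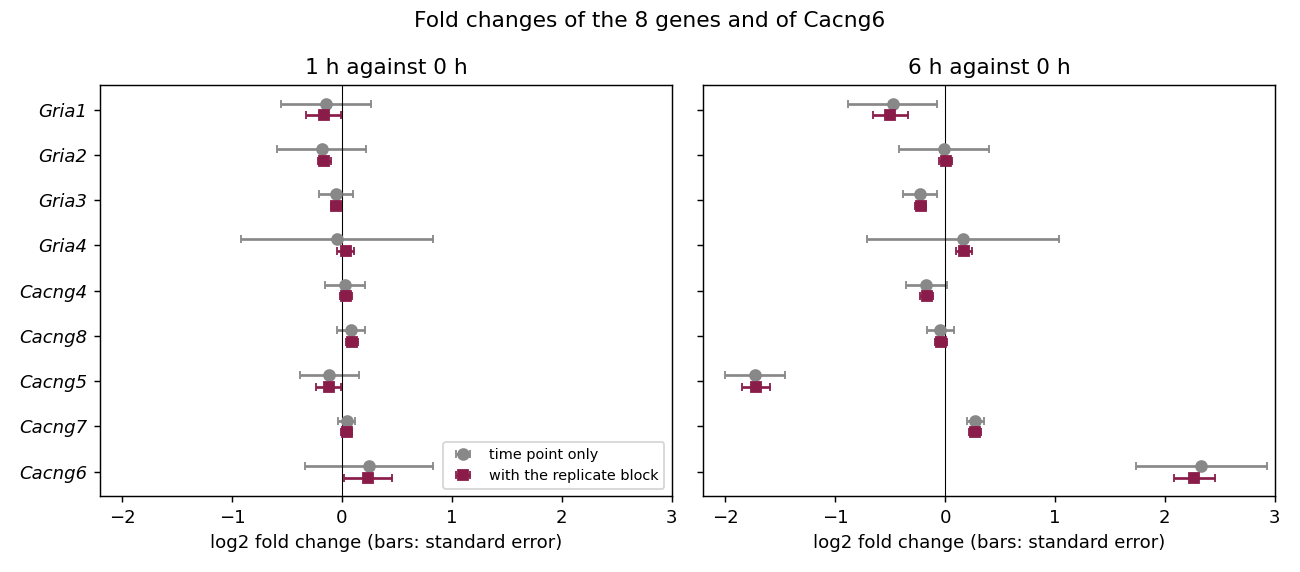
The horizontal axis is the log2 fold change of each gene against 0 h, at 1 h on the left and 6 h on the right, with bars for the SE, in the fit with time point only (circles) and with the replicate block (squares). At 6 h Cacng5 lies at -1.73 and Cacng6, which is not among the 8 genes, at 2.33 without the block, and the bars of Gria2 and Gria4 are several times shorter with the block.

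Replicate number, and not time, held most of the spread of 6 of the 8 genes. The sum of squares of log2 CPM over the 9 libraries was divided between time point, replicate number and the rest. Replicate number took 99.1% for Gria4, 96.3% for Gria2, 82.9% for Cacng8, 81.6% for Cacng4, 78.9% for Gria1 and 73.5% for Gria3. Time point took 88.8% for Cacng5 and 77.6% for Cacng7. Over all tested genes the medians were 26.9% for time point and 48.9% for replicate number. The order of the replicates was not shared by all genes: replicate 3 was the highest at each time point for Gria1, Gria2 and Gria4, replicate 1 for Gria3, Cacng7 and Cacng8, and replicate 2 for Cacng4 and Cacng5. Neither the labels nor the study state what libraries of the same number share.

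**Figure D3:**
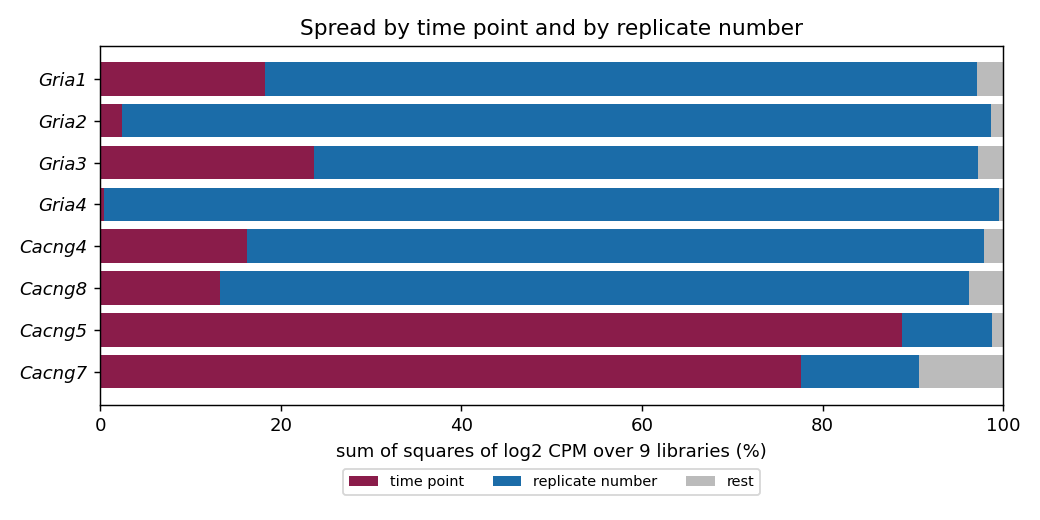
Each bar divides the sum of squares of log2 CPM of 1 gene over 9 libraries (%, horizontal axis) into parts for time point, replicate number and the rest. Time point takes 88.8% for Cacng5 and 77.6% for Cacng7, and at most 23.7% for the other 6 genes.

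Among the 4 TARP genes, the mean share of Cacng7 was higher at 6 h than at 0 h, and those of Cacng4, Cacng5 and Cacng8 were lower. Per kb of exon, Cacng7 made up 48.1% ± 1.95 of the 4 TARP genes at 0 h, 47.8% ± 1.27 at 1 h and 55.2% ± 0.775 at 6 h (SD, n = 3). The share of Cacng5 was 2.29% ± 0.662, 2.04% ± 0.663 and 0.650% ± 0.0830. Cacng8 had 29.9% ± 3.24 at 0 h and 27.6% ± 2.38 at 6 h, and Cacng4 19.7% ± 4.52 and 16.5% ± 2.91. The ratio of Cacng7 to Cacng5 per kb was 27.2, 15.1 and 24.5 in replicates 1, 2 and 3 at 0 h, 31.3, 16.7 and 27.2 at 1 h, and 88.5, 73.3 and 95.7 at 6 h, with no overlap between 6 h and the other time points. The summed level of the 4 TARP genes was 45.3 ± 1.22 CPM per kb at 0 h and 47.7 ± 1.01 at 6 h, and that of the 4 AMPA receptor genes 27.7 ± 6.51 and 26.2 ± 6.80. In each library of replicate 1, Gria3 held between 64.6% and 70.1% of the AMPA receptor sum, and in the libraries of replicate 3 between 33.3% and 39.3%. In replicate 3 at 6 h, Gria2 (37.2%) was above Gria3 (33.3%).

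**Figure D4:**
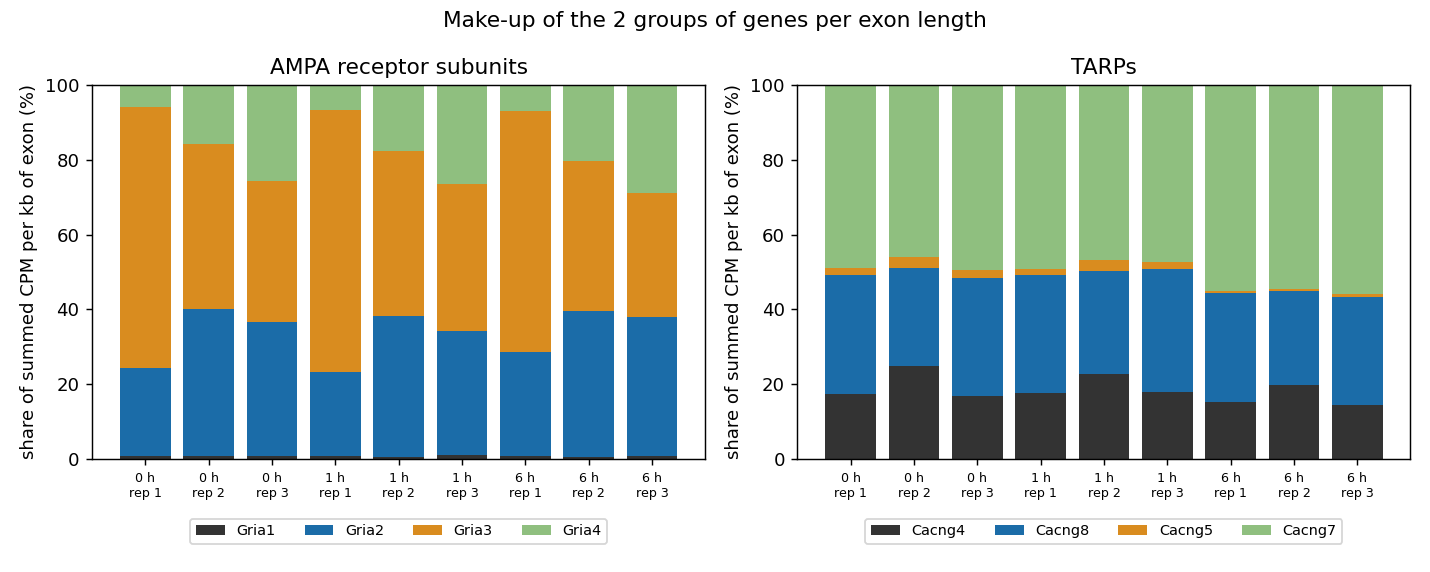
Stacked bars show, for each of the 9 libraries, the share (%) of each gene in the summed CPM per kb of exon, for Gria1 to Gria4 on the left and for the 4 TARP genes on the right. The share of Gria4 runs from 5.76% to 25.8% among the 0 h libraries, and Cacng7 lies between 54.5% and 56.0% in the 6 h libraries.

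Of the other genes of the CACNG family, only Cacng6 had enough reads to be tested. Cacng6 encodes γ-6, a relative of the skeletal muscle calcium channel subunit γ-1 and not a TARP. It had 0.636, 0.730 and 0.301 CPM in replicates 1, 2 and 3 at 0 h and 2.78, 4.59 and 1.05 CPM at 6 h, with 46, 54 and 21 reads against 205, 417 and 113. All 6 h libraries were above those of 0 h, at 4.38, 6.29 and 3.51 times the level of the same number. The log2 fold change of Cacng6 was 2.33 (SE 0.59, adjusted p = 0.0850) without the block, which did not pass the threshold, and 2.27 (SE 0.19, adjusted p = 1.9e-06) with it. The call with the block held in 3 of 3 fits that left out a replicate number. At 6 h against 1 h, Cacng6 had a log2 fold change of 2.08 (SE 0.59, adjusted p = 0.112) without and 2.03 (SE 0.18, adjusted p = 4.4e-06) with the block. Cacng1 had at most 3 reads and Cacng3 at most 2 in a library, and Cacng2, which encodes the TARP stargazin, had 0 reads in all 9 libraries.

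The TARP genes lie in a pair of clusters with other CACNG genes. On chromosome 11 the order by coordinate is Cacng1, Cacng4, Cacng5 and Prkca, with 80048 bp between Cacng4 and Cacng5 and 18332 bp between Cacng5 and Prkca. On chromosome 7 Cacng7, Cacng8 and Cacng6 follow each other, with gaps of 22462 and 8547 bp. Prkca, which encodes protein kinase C alpha, had 34.8 ± 1.10 CPM at 0 h and 72.1 ± 3.50 CPM at 6 h, and rose by a log2 fold change of 1.05 (SE 0.11, adjusted p = 0.00714, edgeR without the block). On chromosome 11 Cacng5 was thus lower at 6 h beside Prkca, which was higher, and on chromosome 7 Cacng8, at 0.951, 1.04 and 0.936 times its 0 h level, lies between Cacng7 and Cacng6, both of which were higher in 3 of 3 replicates.

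The nearest protein-coding genes of the AMPA receptor genes were also measured. Glrb, a glycine receptor subunit gene beside Gria2, had a log2 fold change of 0.20 (SE 0.27, adjusted p = 0.798) without the block and 0.22 (SE 0.07, adjusted p = 0.0296) with it. Thoc2, an mRNA export factor gene beside Gria3, had -0.22 without (SE 0.11, adjusted p = 0.374) and -0.22 with the block (SE 0.06, adjusted p = 0.0150). Fam198b on the other side of Gria2 had -1.15 (SE 0.65, adjusted p = 0.420) and -1.03 (SE 0.37, adjusted p = 0.0489) at a mean of 0.362 CPM. Fam114a2 (beside Gria1), Msantd4 and Casp1 (beside Gria4) were past the threshold in neither fit, and Nmur2 and Cypt14 had 0 CPM.

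Related genes, also called pathway genes below, were taken as 5 lists with 67 genes, of which 59 were tested. The lists include genes of other ionotropic glutamate receptors and of voltage-gated calcium channels, so the pooled counts are not those of a single pathway. At 1 h 0 of 59 were called without or with the block. At an unadjusted p below 0.05 there were 0 without and 5 with the block (Cpt1c, Abhd12, Arc, Grik5 and Grin1). Of all 18858 tested genes, 276 higher and 459 lower had such a p without the block, and 1562 and 1876 with it. DESeq2 called 0 in either design, with 4 (without) and 8 (with the block) of the 59 left without an adjusted p. Between 0 h and 6 h, 3 were higher and 1 lower without the block, and 17 were higher and 10 lower with it. Over all tested genes the shares were 1.46% higher and 0.955% lower without the block and 17.4% and 17.5% with it, which also apply to the counts by list below. The median log2 fold change of the 59 genes was 0.01 without the block. At 6 h against 1 h, 1 was higher and 0 lower without the block and 16 higher and 11 lower with it. The shares of all tested genes in that comparison were 1.48% higher and 0.663% lower without the block and 18.0% and 17.5% with it. Without the block, 0 of the 59 were called between 0 h and 6 h in 8 of the 9 fits that left out 1 library, and the fit without replicate 3 of 1 h called 2 higher and 1 lower. The lists were chosen with results of these data known, so the counts are no independent evidence of a direction.

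Of 16 genes for receptor scaffolds and trafficking, 15 were tested and 3 were called without the block. Dlg3, which encodes the scaffold SAP102, had 18.5, 20.6 and 19.8 CPM in replicates 1, 2 and 3 at 0 h and 29.6, 33.8 and 26.6 CPM at 6 h, and rose by a log2 fold change of 0.61 (SE 0.11, adjusted p = 0.0320). Pick1, which encodes a PDZ protein that binds GluA2 and takes part in its internalisation, rose by 0.51 (SE 0.11, adjusted p = 0.0491), from 25.8 ± 3.17 to 36.6 ± 2.68 CPM. Epb41l1, which encodes the cytoskeletal protein 4.1N that binds GluA1, fell by 0.56 on the log2 scale (SE 0.12, adjusted p = 0.0474), from 28.9 ± 2.22 to 19.6 ± 1.32 CPM. With the block 3 were higher and 4 lower, and the largest fall was that of Arc, an immediate early gene whose product promotes AMPA receptor endocytosis. Arc had 6.26, 9.50 and 4.37 CPM at 0 h and 1.85, 3.38 and 1.15 CPM at 6 h, a log2 fold change of -1.70 (SE 0.11, adjusted p = 3.0e-07) with the block and -1.66 (SE 0.47, adjusted p = 0.114) without it. Camk2a, the kinase gene of synaptic plasticity, fell by 0.78 with the block (SE 0.08, adjusted p = 1.7e-05), while its replicates ranged from 2.78 to 15.2 CPM at 0 h and its adjusted p without the block was 0.741.

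The 13 genes for auxiliary and assembly factors were all tested, and none was called without the block. With it, 3 were higher and 1 lower. Abhd12, a serine hydrolase gene, rose by a log2 fold change of 0.40 (SE 0.06, adjusted p = 0.000181), from 51.6 ± 3.75 to 68.5 ± 9.85 CPM. Cpt1c, whose product binds GluA1 in the endoplasmic reticulum, rose by 0.25 (SE 0.05, adjusted p = 0.00283), and Porcn by 0.24 (SE 0.08, adjusted p = 0.0352). Shisa9, which encodes the auxiliary subunit CKAMP44, fell by 0.56 (SE 0.17, adjusted p = 0.0194), at levels between 0.0950 and 4.01 CPM.

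Among 16 genes for other ionotropic glutamate receptors and their auxiliary subunits, Grik5 was called without the block. Grik5, a high-affinity kainate receptor subunit gene, had 90.0, 76.3 and 88.3 CPM in replicates 1, 2 and 3 at 0 h and 131, 112 and 118 CPM at 6 h, and rose by a log2 fold change of 0.50 (SE 0.09, adjusted p = 0.0380). With the block 5 were higher and 4 lower. Genes of NMDA receptor subunits moved both ways with the block: Grin2a fell by 1.41 (SE 0.15, adjusted p = 1.7e-05), and Grin2c rose by 0.94 (SE 0.12, adjusted p = 8.2e-05), Grin1 by 0.88 (SE 0.15, adjusted p = 0.000655) and Grin3a by 0.68 (SE 0.08, adjusted p = 3.3e-05). None of these 4 passed the threshold without the block, where the lowest adjusted p was that of Grin3a (0.104). Grin2c had 2.56, 5.12 and 0.100 CPM in replicates 1, 2 and 3 at 0 h, so that its replicates were further apart than its time points.

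Of 18 genes for voltage-gated calcium channel subunits, 14 were tested and none was called without the block. With it, 5 were higher and 1 lower. The 4 with the largest changes were Cacna1b, the N-type pore subunit gene, with a log2 fold change of 0.60 (SE 0.09, adjusted p = 0.000172), the genes of the auxiliary beta subunits Cacnb2 (0.54, SE 0.11, adjusted p = 0.00209) and Cacnb1 (0.50, SE 0.08, adjusted p = 0.000437), and Cacna2d3 (0.49, SE 0.12, adjusted p = 0.00631).

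**Figure D5:**
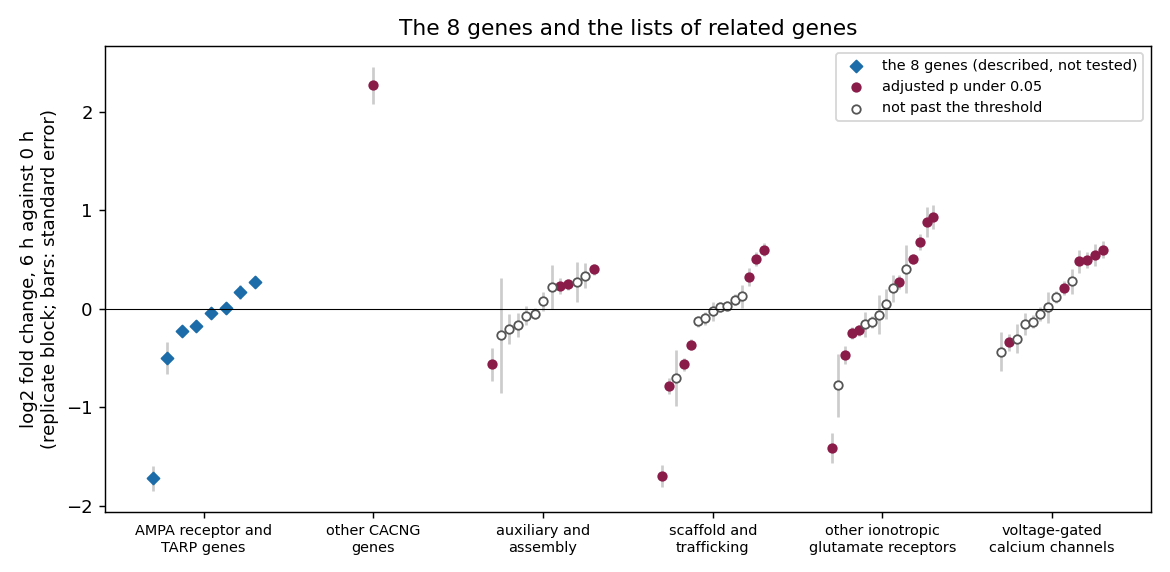
The vertical axis is the log2 fold change at 6 h against 0 h with the replicate block (bars: SE) for each tested gene of the 8 described here (diamonds) and of 5 lists of related genes, with filled circles for an adjusted p under 0.05. The genes run from -1.72 for Cacng5 to 2.27 for Cacng6, and 17 of the 59 related genes are past the threshold above 0 and 10 below it.

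The genes whose log2 CPM over the 9 libraries was most like that of Cacng5, of 13605 genes with a mean of at least 1 CPM, were Hspa4 (Pearson r = 0.989), Atad1 (r = 0.985) and Cul5 (r = 0.984). Hspa4 encodes a heat shock protein, Atad1 an ATPase that is known to take part in AMPA receptor disassembly, and Cul5 a scaffold of ubiquitin ligases. The genes most like Gria2 were Prrg3 (r = 0.986), Col11a1 (r = 0.985) and Sorcs1 (r = 0.984). These values describe 9 libraries that share time points and replicate numbers.

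The members share exon bases with small annotated miRNA genes only: 111 of 15548 in Gria2, 85 of 9859 in Gria3, 19 of 6305 in Gria4 and 91 of 2345 in Cacng8, and these miRNA genes had between 0 and 9 reads in all libraries together. The gene models of Cacng4, Cacng7 and Cacng8 also overlap those of other non-coding genes (Gm11650, Gm44256 and Gm44151), but with 0 shared exon bases. The strand setting of the counting is not given in the sources used here.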

How the data were processed

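Stranded mRNA libraries had been sequenced from adult mouse NSCs, undifferentiated or collected 1 h or 6 h into differentiation (3 replicates each). The authors deposited raw counts of reads per Ensembl gene, not normalised. Per the labels they used STAR 2.5.3a, FastQC and DESeq2 1.22.1 with mm10 (GRCm38), whereas the strand setting of the counting is not given in the sources used here. Each column matched 1 library by title. Total counts ranged from 65871454 to 105592597. The lowest chi-square per degree of freedom between libraries was 13.7, so each was counted as its own sample. P-values without the replicate block measure the spread between replicates. Those with it measure the spread left after replicate number is taken out. Either spread may be technical, as no label states separate animals or cultures.

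Genes were kept with filterByExpr (minimum count 10, minimum total 15), scaled with TMM, and fitted across all 18858 genes with the quasi-likelihood test of edgeR 4.0.16 (limma 3.58.1, R 4.3.3) on all 9 libraries with time point as the only factor. All tested genes entered the Benjamini-Hochberg adjustment, and an adjusted p of 0.05 was the threshold. Each SE comes from the log2 fold change and its F statistic. CPM are TMM-scaled, and log2 CPM used a prior count of 2. GENCODE M21 named 48144 of 48526 identifiers and gave positions and exon lengths. Promoter windows are from RefSeq, which had one for 5 of the 8 genes. The edgeR fits with and without the replicate block were run on simulated data, where a pass was required only of the fit with the block. Python 3.11.15 (pandas 2.3.3, matplotlib 3.10.9) served for tables and plots.

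Replicates 1, 2 and 3 are the letters B, C and D of the labels. After subtraction of time point means, libraries of the same number correlated at 0.733 to 0.800 (9 pairs), so the numbers pair the samples. Others correlated at -0.462 to -0.314 (18 pairs), and negative values follow from the subtraction once libraries of the same number correlate. The fit with the replicate block is given beside the main one. The biological coefficient of variation was 0.277 without and 0.0627 with the block. The members, lists and tests were chosen with earlier results of these data known. Named are all members, the other CACNG genes, the nearest protein-coding genes (1 is not reported here), up to 4 called genes per list and comparison (largest change, mean CPM 1 or more), and the 3 genes most like Cacng5 and like the member of highest mean CPM. For 6 h against 1 h only counts are given for the lists. Alternatives were DESeq2 1.42.0, the replicate block in edgeR and DESeq2, RLE scaling, library totals, no low-count filter, only genes with mean CPM 1 or more, the 6 libraries compared only, the block with trends in GC content and length removed (4-df splines, applied to 99.6% of genes), and each library left out. Splicing and other experiments of the study were not analysed here.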

Additional observations from a re-analysis of the deposited data

How the results depend on the processing

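The calls at 6 h depended most on the replicate block, which pairs libraries by number. It changed no call of the 8 genes or the pathway genes at 1 h, and none of Prkca at 6 h. Between 0 h and 6 h, the 8 genes had 0 called higher and 1 lower without the block, 1 and 4 with it, 1 and 3 in DESeq2 with it, and 3 and 5 in the block with trends in GC content and length removed. DESeq2 without the block called 1 higher. Over all genes with an adjusted p, DESeq2 called 3006 higher and 3120 lower of 18126 with the block. Without the block it called 929 and 813 of 17357. These backgrounds also apply to the pathway genes below. The share over all genes in the fit with the trends removed is not given here, so nothing is read from its counts. With only the 6 libraries compared, 0 were lower. Leaving out 1 library gave 0 to 1 lower. Between 1 h and 6 h, 2 were higher and 3 lower with the block in edgeR, in DESeq2 and with the trends removed, and 0 were lower with the 6 libraries only and 0 to 1 with 1 library left out. At 1 h no alternative called a member.

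Of the 59 tested pathway genes, 17 were higher and 10 lower at 6 h against 0 h with the block, 18 and 10 in DESeq2 with it, 16 and 10 with the trends removed, and 6 and 2 in DESeq2 without it. With the 6 libraries compared, 0 were higher and 0 lower. Library totals and no filter each left 0 lower. Leaving out 1 library gave 0 to 2 higher and 0 to 1 lower, with calls only without replicate 3 of 1 h. Between 1 h and 6 h the counts were 16 and 11 with the block, 14 and 11 in DESeq2 with it and with the trends removed, and 7 and 2 in DESeq2. Over all genes with an adjusted p in that comparison, DESeq2 called 3020 higher and 3265 lower of 17395 with the block. Without it, DESeq2 called 932 and 763 of 15899. RLE scaling, no filter and the 6 libraries each gave 0 higher, library totals 2 higher, and genes with mean CPM 1 or more 1 lower. Leaving out 1 library gave 0 higher and 0 to 1 lower. The causes were not tested.

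Signs reversed as follows with all libraries kept. At 1 h, the log2 fold change of Gria4 was 0.0328 with the block, 0.042 in DESeq2 with it and 0.085 with the trends removed, where that of Gria3 was 0.0422, that of Cacng8 -0.0405 and that of Cacng7 -0.000793. Between 0 h and 6 h, that of Gria2 was 0.00782 with the block, 0.0067 in DESeq2 with it, 0.012 with library totals, 0.00742 with no filter, 0.00341 with mean CPM of 1 or more and 0.133 with the trends removed.

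Signs also reversed when libraries were left out, for Gria4 by the widest margin. The ranges for 1 library left out are from fits without the block. In these fits the replicate numbers are unequal between time points. Without 1 library, the log2 fold change at 1 h ranged from -0.549 to 0.178 for Gria1, -0.474 to 0.0818 for Gria2, -0.197 to 0.0669 for Gria3, -0.671 to 0.776 for Gria4, -0.0913 to 0.212 for Cacng4, -0.017 to 0.169 for Cacng8, -0.396 to 0.125 for Cacng5, -0.0135 to 0.0721 for Cacng7 and -0.0686 to 0.555 for Cacng6. Between 0 h and 6 h it ranged from -0.296 to 0.258 for Gria2, -0.569 to 0.981 for Gria4, -0.326 to 0.0138 for Cacng4 and -0.141 to 0.0289 for Cacng8. Between 1 h and 6 h it ranged from -0.712 to 0.0763 for Gria1, -0.0902 to 0.442 for Gria2 and -0.525 to 0.839 for Gria4. With the block and 1 replicate number left out, it ranged from -0.019 to 0.154 for Gria4 at 1 h and from -0.0275 to 0.056 for Gria2 at 6 h. Gria1 and Cacng5 had the fewest reads, which limits the precision of their values.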
